A study of Mus musculus with 14 samples.

Results

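miR-340 is a microRNA (miRNA) whose hairpin precursor gives 2 mature products, mmu-miR-340-5p from its 5′ arm and mmu-miR-340-3p from its 3′ arm, written below without the species prefix. Both were found by name among the 1695 mouse miRNA names counted in these libraries. The pair was chosen by the high level of miR-340-5p in these libraries, so that level and the balance of the arms are given as descriptions, without a test. That choice does not use the difference between treatments. The libraries were made from small extracellular vesicles, membrane particles that cells release into their medium. Their source was neutrophils, taken as Ly6G-positive cells out of bone marrow from female BALB/c mice of wild type, whose age is not given in the sources used here. These cells were kept for 48 h with the solvent DMSO (7 libraries) or with 10 µM 27-hydroxycholesterol (27HC), an oxidised metabolite of cholesterol (7 libraries). The comparison bears on what 27HC does to the miRNA content of vesicles that were studied for their effect on breast cancer cells. The labels number the libraries 1 to 7 in each group and do not say whether these are separate mice or cultures, so p-values measure only the spread between these libraries.

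A miRNA hairpin is cut into a short duplex, and one strand of it, the guide, stays in an Argonaute protein while the other is usually degraded. The guide finds messenger RNAs mainly through its seed, bases 2 to 8 from its 5′ end, and lowers their translation and stability. miR-340-5p is known as a repressor of the receptor tyrosine kinase MET and of the migration of breast cancer cells. Its hairpin, Mir340, lies in an intron of Rnf130, the gene of a membrane-bound RING-finger ubiquitin ligase, on the same strand.

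In the GRCm38 annotation the Mir340 hairpin lies at chr11:50069702-50069799 on the plus strand, between exons 2 and 3 of both Rnf130 transcripts that span it. It starts 16731 bases after exon 2, ends 1371 bases before exon 3 and overlaps no exon. The mature arms are shown with the seed in capitals because the 2 strands carry different seeds, and the hairpin is shown with both mature arms in capitals. The sequences are those of RefSeq, on GRCm38.p6.
miR-340-5p: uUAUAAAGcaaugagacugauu
miR-340-3p: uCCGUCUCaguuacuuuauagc
Mir340 hairpin: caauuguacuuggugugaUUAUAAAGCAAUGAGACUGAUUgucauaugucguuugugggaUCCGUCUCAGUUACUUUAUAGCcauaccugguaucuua

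Both arms are 22 bases long, at chr11:50069720-50069741 and chr11:50069762-50069783, with 20 bases between them. In the predicted fold of the hairpin, 16 of the 22 bases of miR-340-5p pair with miR-340-3p. The seed of miR-340-5p holds 6 A or U bases out of 7, which 2.99% of the 201 tested names with a RefSeq sequence reach. Over its whole length miR-340-5p is 72.7% A and U, against a median of 52.2%, and 0 of those 201 names had more. The next was miR-135a-5p at 69.6%, followed by a tie of let-7f-5p and others at 68.2%.

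Neither seed was shared with another of the 1431 listed names that have a RefSeq sequence, and 0 of them shared bases 2 to 7. The longest run of bases in common was 8 for miR-340-5p (5 names, miR-21a-5p among them) and 9 for miR-340-3p (miR-1929-5p). One abundant name carries the seed of miR-340-5p shifted by a base. This is miR-142a-5p, a product of a hairpin expressed throughout blood cells, whose bases 2 to 7 equal bases 3 to 8 of miR-340-5p. The 6 shared bases are in capitals below.
miR-340-5p: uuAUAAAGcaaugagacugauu
miR-142a-5p: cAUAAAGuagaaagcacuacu

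By counts, miR-340-5p was one of the most abundant miRNAs of these vesicles. Its share of all counts was 1.14 ± 0.163% (SD, n = 7) with DMSO and 1.01 ± 0.0720% (SD, n = 7) with 27HC. Library totals ran from 112914 to 871189 counts, and miR-340-5p had 1093 to 11361 counts in a library. In the shallowest library, DMSO replicate 5, the share of 1.05% had a 95% Wilson interval from 0.989 to 1.11%. Such intervals cover counting error only, and it is not stated whether the counts are of reads or of molecules. The name ranked between 11 and 15 in each of the 14 libraries.

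Levels are given from here on as counts per 1000000 (CPM) on library sizes scaled by TMM, a method that evens out differences in composition. DMSO replicates 1 to 7 had 12229, 13847, 15488, 12488, 9478, 8982 and 8114 CPM of miR-340-5p. The libraries of 27HC replicates 1 to 7 had 10442, 10556, 11677, 10394, 8762, 9333 and 10472 CPM. The 4 highest values were those of DMSO replicates 1 to 4, and the lowest was that of DMSO replicate 7. In CPM no library with 27HC lay outside the range of the DMSO libraries, which spread more widely (SD 2733 against 939 CPM). As a share of all counts, 1 of the 7 libraries with 27HC lay below the DMSO range and 7 of 7 lay below the DMSO mean.

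**Figure D1:**
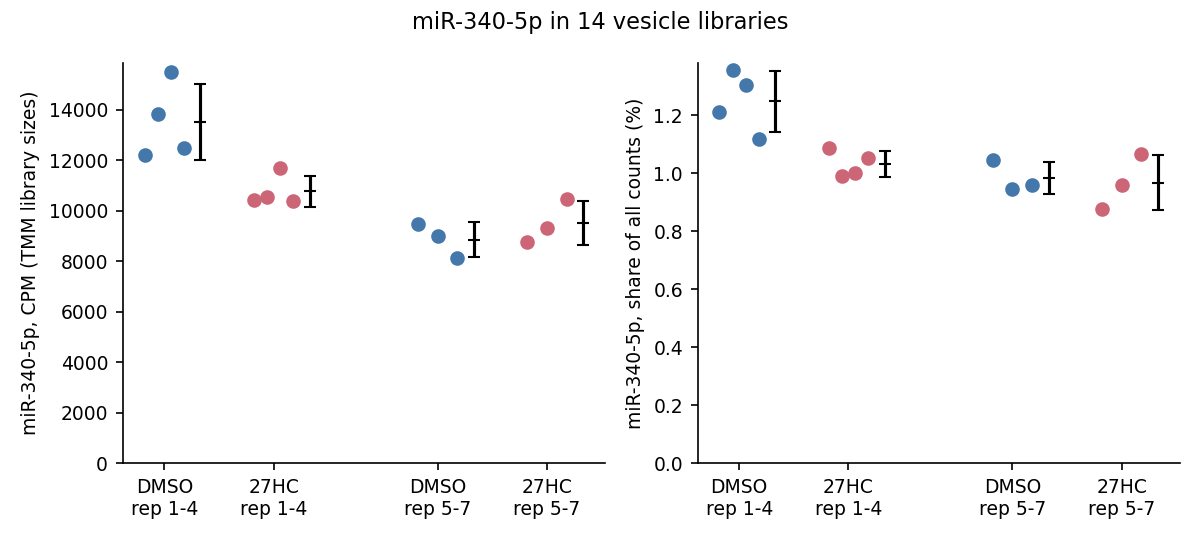
miR-340-5p in each library, as CPM on TMM library sizes (left) and as the share of all counts in percent (right), for DMSO (blue) and 27HC (red) in replicates 1 to 4 and 5 to 7. Points are libraries and bars are the mean ± SD. DMSO replicates 1 to 4 sit above all other libraries in both panels, from 12229 CPM and 1.12% upwards.

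In the order of mean CPM over the 14 libraries miR-340-5p came at place 14, at 10876 ± 2073 CPM (SD, n = 14). Mature miRNAs are of nearly equal length, so counts of different names are compared without a correction for length. How evenly different sequences enter a library was not tested, so the order is one of counts. Just above it stood miR-26a-5p at 10983 ± 3509 CPM, miR-21a-5p at 12578 ± 1053 CPM and miR-10a-5p at 12718 ± 2249 CPM. Just below it stood miR-30d-5p at 9388 ± 2145 CPM, miR-29a-3p at 9077 ± 923 CPM and miR-129-5p at 8160 ± 7368 CPM. The SD of miR-129-5p spans both treatments, between which it fell with 27HC (log2 fold change −3.29, SE 0.21, edgeR adjusted p 7.98e-09). miR-26a-5p was above miR-340-5p in 7 of the 14 libraries, and miR-30d-5p in 3. The ranges of both overlap with that of miR-340-5p, and differences between names were not tested. miR-29a-3p, whose range overlaps that of miR-340-5p, lay under it in each of the 14 libraries. miR-10a-5p was above it in 13 libraries and miR-21a-5p in 11.

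Its place hardly moved with treatment although names around it did. With DMSO 12 names had a higher mean and with 27HC 11 did, and 9 names were above it in both. Those 9 were miR-16-5p, miR-223-3p, miR-423-5p, miR-25-3p, miR-93-5p, miR-148a-3p, miR-23a-3p, miR-10a-5p and miR-21a-5p. miR-146a-5p, miR-26a-5p and miR-129-5p were above it with DMSO only. miR-3473b and miR-3473e were above it with 27HC only. These 2 names had nearly the same mean over the 14 libraries (15973 and 15930 CPM). Their ranges were nearly the same too (2622 to 36534 and 2592 to 36514 CPM). Likewise miR-199a-3p and miR-199b-3p had the same mean, 575 CPM. How reads shared between names were counted is not given. The places given here, and counts of names below, may thus count such names double.

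The difference between 27HC and DMSO was small against the spread. The 7 DMSO libraries had a mean of 11518 ± 2733 CPM (SD) and the 7 with 27HC a mean of 10234 ± 939 CPM (SD). The log2 fold change by edgeR's quasi-likelihood test was −0.17 (SE 0.13), with an unadjusted p of 0.221 and an adjusted p of 0.518. The 95% interval of the fold ran from 0.729 to 1.08, which includes 1. Without DMSO replicate 3, the library with the highest level and depth, the log2 fold change was −0.027. miR-340-5p was the 1 arm of 2 with enough counts to be tested, and it was not called. Among the 239 tested names, 30 (12.6%) passed, with an adjusted p under 0.05 by edgeR, and are named called here, 9 higher (3.77%) and 21 lower (8.79%). With upper quartile scaling in place of TMM the calls split into 7 higher and 30 lower. Over the 239 names the log2 fold changes had a median of 0.010.

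The 2 sets of replicates that the libraries fall into gave different values for this contrast. In replicates 1 to 4 the 4 libraries with 27HC (10394 to 11677 CPM) all lay under the 4 DMSO libraries (12229 to 15488 CPM). That also held for 15.1% of the tested names. Fitted on replicates 1 to 4 alone, the edgeR log2 fold change was −0.26 (SE 0.096), with an unadjusted p of 0.0197 and an adjusted p of 0.0883, in a fit that called 17.4% of 242 names. In replicates 5 to 7 the 27HC libraries (8762 to 10472 CPM) and the DMSO libraries (8114 to 9478 CPM) overlapped. The log2 fold change there was 0.11 (SE 0.14, edgeR adjusted p 0.826), where 6.06% of 198 names were called. As a share of all counts, the mean in replicates 5 to 7 was 0.968% with 27HC and 0.984% with DMSO, so this direction turns with the scaling.

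The difference between the sets was itself tested by an interaction term across all tested names. The sets came out of these data in earlier work, so p-values by set or of this term do not belong to a split fixed beforehand. The 27HC effect on miR-340-5p was higher by 0.43 in replicates 5 to 7 than in replicates 1 to 4 (SE 0.15). Its unadjusted p was 0.0108 and its edgeR adjusted p was 0.267, and the interaction term called 0 of 239 names. Before adjustment 24 of them had an edgeR p under 0.05.

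**Figure D2:**
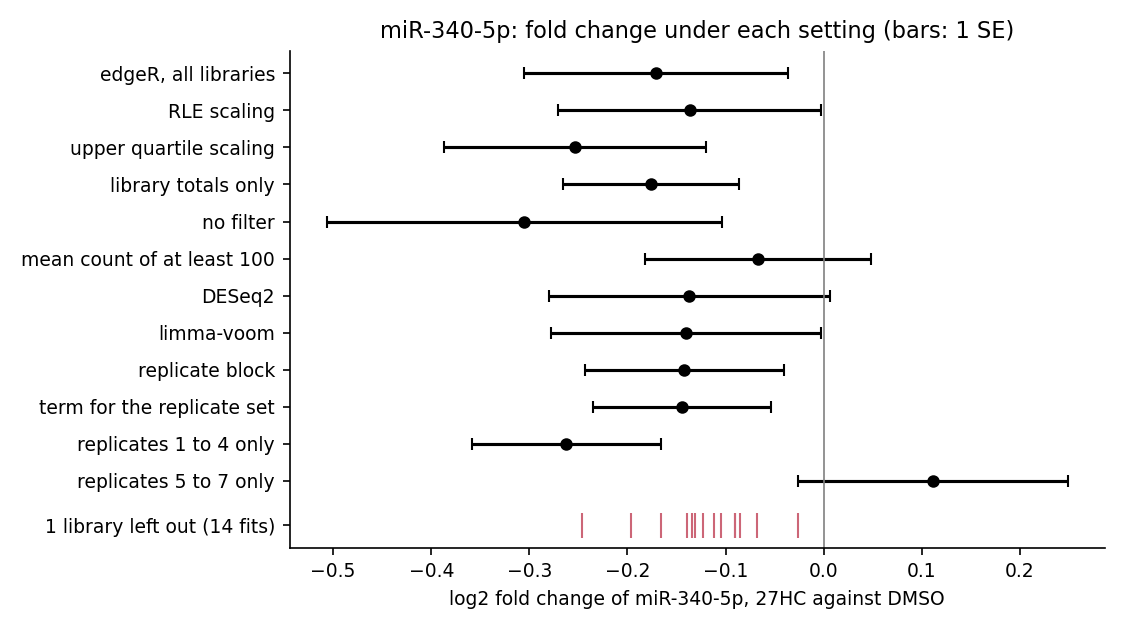
The log2 fold change of miR-340-5p with 27HC against DMSO under each way of processing, with bars of 1 SE, and the 14 values with 1 library left out as ticks. Values lie left of 0 (lower with 27HC) in each fit except the one on replicates 5 to 7, at 0.11.

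Set and treatment together gave 4 levels of miR-340-5p. DMSO replicates 1 to 4 were highest at 13513 ± 1496 CPM (SD, n = 4), followed by 27HC replicates 1 to 4 at 10767 ± 610 CPM (SD, n = 4). 27HC replicates 5 to 7 had 9522 ± 870 CPM and DMSO replicates 5 to 7 had 8858 ± 690 CPM (SD, n = 3 each). The highest group did not overlap with the next, while each of the others overlapped with its neighbour in the order. From replicates 1 to 4 to replicates 5 to 7 the mean log2 CPM was lower by 0.61 among DMSO libraries and by 0.18 among 27HC libraries. Ordered by the size of this difference in DMSO libraries, miR-340-5p came at place 85 of the 239 tested names. These sets came out of the data in earlier work, so no test of the set itself is given.

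Depth and some other miRNAs differed between the sets as well, with ranges that overlapped. Totals ran from 229324 to 871189 counts in replicates 1 to 4 and from 112914 to 252014 in replicates 5 to 7. The summed level of 5 myeloid miRNAs (miR-223-3p, miR-142a-3p, miR-142a-5p, miR-146a-5p and miR-155-5p) ran from 124558 to 235252 CPM in the first set and from 100076 to 150451 CPM in the second. miR-122-5p, the liver's leading miRNA, ran from 1895 to 3307 CPM and from 3175 to 4587 CPM. Other sums lay closer together: that of 3 erythroid names ran from 710 to 1105 CPM in the first set and from 489 to 1102 CPM in the second. The sum of 5 stromal and endothelial names ran from 714 to 1650 CPM and from 978 to 1812 CPM. By treatment the erythroid sum ran from 489 to 1051 CPM with DMSO and from 730 to 1105 CPM with 27HC. Most of it was miR-486a-5p (694 ± 181 and 878 ± 138 CPM, SD, n = 7 each). That name was not called, and miR-451a and miR-144-3p were too scarce to be tested. By treatment the myeloid sum ran from 100076 to 235252 CPM with DMSO and from 119166 to 157506 CPM with 27HC. Of the 5 names, edgeR called 4 lower with 27HC, all but miR-223-3p (limma-voom 3), where 8.79% of all tested names were called lower. The lymphoid marker miR-150-5p was called lower too, from 254 ± 88.4 CPM to 130 ± 29.6 CPM (SD, n = 7 each), a difference of −0.97 in log2 with SE 0.24 (adjusted p 0.0134 by edgeR). The part of depth or of other cells in the values of miR-340-5p was not tested. miR-223-3p, the defining neutrophil miRNA, was the second most abundant name, with 12.8% of the counts. It made up most of the myeloid sum and was not called (log2 fold change −0.26, SE 0.17, edgeR adjusted p 0.406). In these bulk libraries fewer vesicles of a kind and less of a miRNA per vesicle cannot be told apart.

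Part of the spread of miR-340-5p lay between the sets. Within treatment its SD was 0.26 on the log2 CPM scale, and within treatment and set it was 0.12. The medians over the 239 tested names were 0.41 and 0.35. Most of those names are scarcer, and among the 30 most abundant the medians were 0.26 and 0.15. There miR-340-5p came at places 17 and 7 from the smallest SD, so its spread was near that of names of like level.

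miR-340-3p was close to the limit of detection. DMSO replicates 1 to 7 had 2, 8, 18, 4, 0, 5 and 3 counts, and 27HC replicates 1 to 7 had 0, 0, 3, 3, 1, 2 and 5. The groups overlap, and 9 of the 14 libraries had no more than 3 counts, which is as many as a count of 0 leaves possible. A count of 0 thus allowed up to 26.6 per 1000000 counts in DMSO replicate 5, and 7.39 and 13.1 in 27HC replicates 1 and 2.

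Summed over libraries, miR-340-3p had 40 of 2373021 counts with DMSO, or 16.9 per 1000000 (95% exact Poisson interval 12.04 to 22.95). With 27HC it had 14 of 1552769, or 9.02 per 1000000 (4.93 to 15.1). These intervals cover counting error only, and DMSO replicate 3 alone gave 18 of the 40 counts. The filter on low counts removed the name. In an edgeR fit without the filter its log2 fold change was −0.68 (SE 0.72, unadjusted p 0.344, adjusted p 0.681), a difference smaller than its error. That fit called 1.59% of 1695 names. By set the 3p arm had 32 counts in DMSO replicates 1 to 4 (17.4 per 1000000, 11.9 to 24.5) and 6 in 27HC replicates 1 to 4 (5.08, 1.86 to 11.1). In replicates 5 to 7 each treatment had 8 counts, or 15.035 per 1000000 (6.49 to 29.6) with DMSO and 21.5 (9.30 to 42.4) with 27HC. The unfiltered edgeR log2 fold change was −1.78 in the first set (unadjusted p 0.0303, adjusted p 0.378) and 0.63 in the second. The interaction was 2.49 (SE 1.29, unadjusted p 0.0539, edgeR adjusted p 0.826).

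Nearly all counts of miR-340 in the vesicles were of the 5p arm. Over the 14 libraries there were 44276 counts of miR-340-5p and 54 of miR-340-3p, about 820 to 1, and the 3p arm made up 0.122% of both (95% exact binomial interval 0.0915 to 0.159%). By group the 3p arm made up 0.141% with DMSO (0.101 to 0.192%) and 0.0879% with 27HC (0.0481 to 0.147%).

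**Figure D3:**
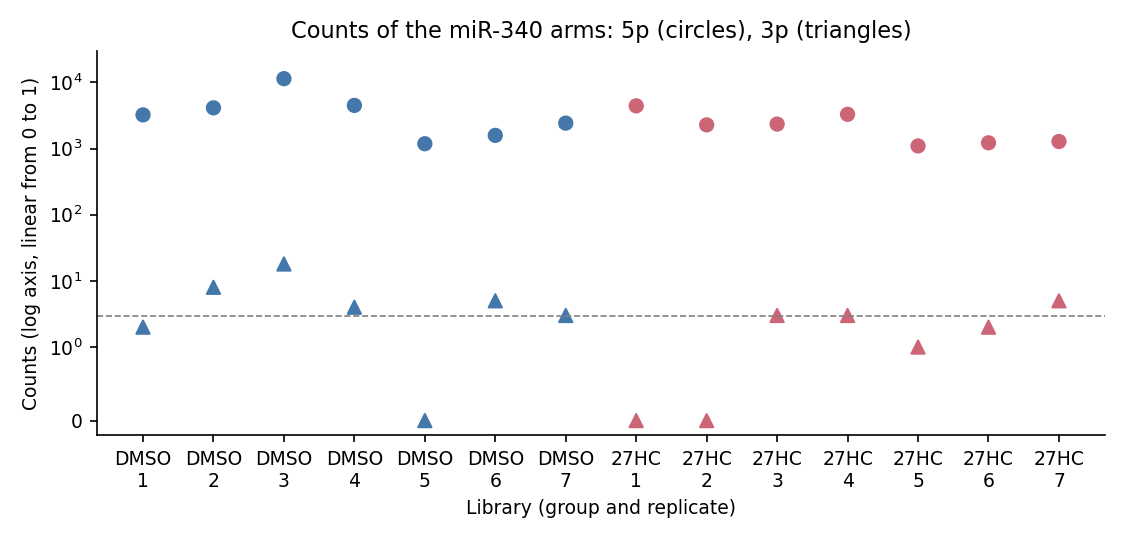
Counts of miR-340-5p (circles) and miR-340-3p (triangles) in each DMSO (blue) and 27HC (red) library, on a log axis that is linear below 1. The dashed line is the limit of 3 counts. The 5p arm lies between 1093 and 11361 counts and the 3p arm between 0 and 18.

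The arm ratio within a library uses no scaling factor between libraries, but with counts added to an arm near 0 it still depends on depth. The log2 ratio of 5p to 3p, with 0.5 counts added to each, was 9.61 ± 0.993 (SD, n = 7) for DMSO and 10.1 ± 1.85 (SD, n = 7) for 27HC. The difference of 0.51 had an exact two-sided permutation p of 0.541. Replicates 1 to 4 gave 1.51, with an exact permutation p of 0.2. Replicates 5 to 7 gave −0.84, with an exact permutation p of 0.5 in a design that cannot go below 0.1. The 3 libraries with 0 counts of the 3p arm set the highest ratios. Among them the ratio followed the 5p counts, from 11.2 at 1182 counts (DMSO replicate 5) to 13.1 at 4414 counts (27HC replicate 1). Without 27HC replicate 1 the difference was 0.0071. A shift in arm use was thus not detectable at this depth.

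Strong arm bias was common among abundant hairpins. Of 29 hairpins with both arms listed and at least 10000 counts, miR-340 came at place 11 by the size of the bias, with a log2 ratio of 9.67 on summed counts against a median size of 9.05. Ahead of it stood miR-122 (11206 counts of 5p, 5 of 3p) and miR-122b (5 of 5p, 10990 of 3p), whose counts are nearly mirrored. Whether they share reads is not known, so the place and the median may count them double. miR-146a was more one-sided (56390 counts against 1), as were miR-25 toward its 3p arm (145508 against 49) and miR-15a (30199 against 26). miR-142a was the most balanced, with 34215 counts of 3p and 8518 of 5p. The first 4 bases of miR-340-5p hold 0 G or C bases and those of miR-340-3p hold 3. Of the 25 such hairpins with RefSeq sequences for both arms, miR-340 among them, the arm with fewer G and C bases at its start was the more abundant in 13 and the less abundant in 4, and 8 had equal numbers. Over the 125 matched hairpins with at least 100 counts the numbers were 51, 31 and 43, a weaker relation.

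**Figure D4:**
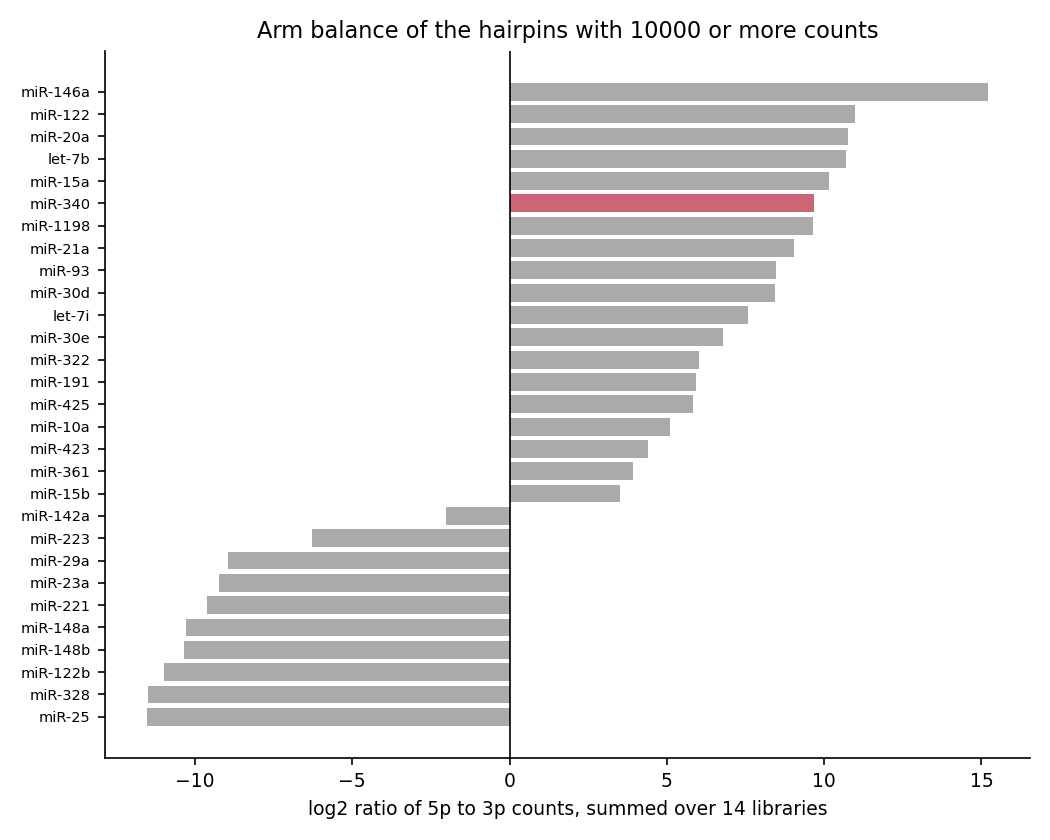
The log2 ratio of 5p to 3p counts, summed over the 14 libraries, for the 29 hairpins with at least 10000 counts (bars to the right: 5p arm higher). miR-340, in red, is at 9.67.

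The names most like miR-340-5p were sought over the 14 libraries by the correlation of log2 CPM, after the mean of each treatment in each set had been taken off. They were miR-29c-3p (Pearson r 0.83), miR-29a-3p (r 0.81) and miR-142a-5p (r 0.79), the name with the shifted seed. The median r over the other 238 tested names was −0.070, and 23 were above 0.5. miR-29c-3p and miR-29a-3p share a seed and target collagen messages. Their log2 fold changes with 27HC were −0.25 (SE 0.13, edgeR adjusted p 0.250) and 0.059 (SE 0.091, edgeR adjusted p 0.818), and neither was called. miR-142a-5p fell by 0.74 on that scale (SE 0.20), edgeR giving an adjusted p of 0.0223, and its mean went from 2412 ± 931 CPM to 1451 ± 178 CPM (SD, n = 7 each). These correlations share libraries and depth and are given as descriptions.

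Likeness to miR-340-5p went with base composition. Over 200 tested names, the r with miR-340-5p correlated with the percentage of A and U bases at a Pearson r of 0.49 and a Spearman rho of 0.51. miR-92b-3p, at 36.4% A and U, had the lowest r, −0.88 (named after its value was seen), while the 3 most alike names had 59.1 to 66.7%. The log2 difference between 27HC and DMSO in replicates 1 to 4 correlated with the A and U percentage at r −0.29, and that in replicates 5 to 7 at r −0.11. Names are not independent replicates and share libraries and depth, and the part of base composition in the values of miR-340-5p was not tested.

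**Figure D5:**
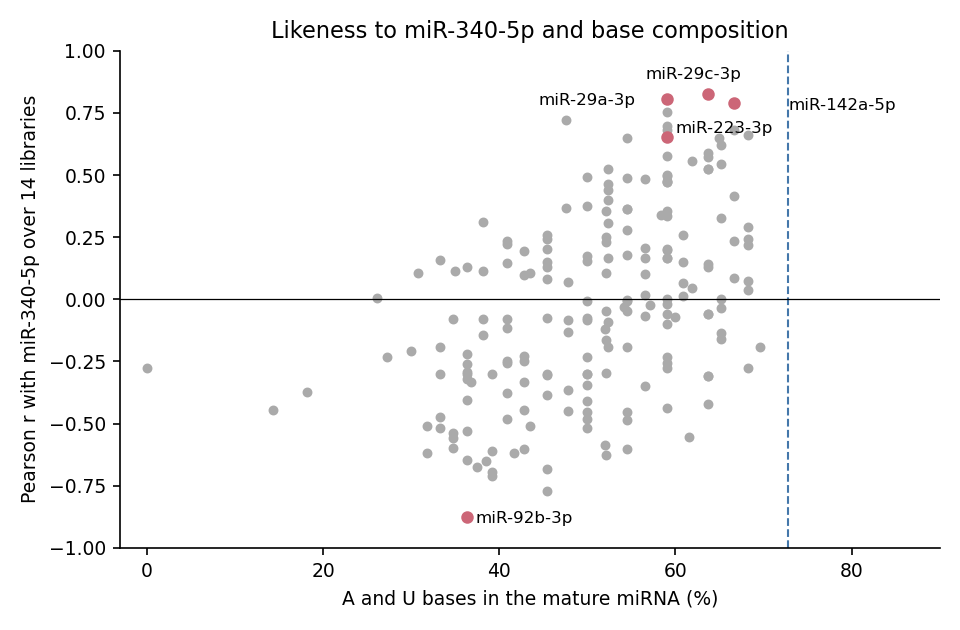
For 200 tested names, the Pearson r with miR-340-5p over 14 libraries (after treatment and set means were taken off) against the percentage of A and U bases. The dashed line marks miR-340-5p itself at 72.7%. Names with more A and U tend to lie higher, with r 0.49 over names.

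Lists of 3 kinds set miR-340-5p beside other miRNAs of like role or origin. Other miRNAs known to repress MET were scarcer. Of 7, 4 were tested and 0 were called by edgeR, DESeq2 or limma-voom, with 0 at an unadjusted p under 0.05, and their median log2 fold change was 0.049. With 12.6% of all tested names called by edgeR, a count of 0 among 4 is near the background. miR-34a-5p, which p53 induces, had 521 ± 78.6 CPM with DMSO and 542 ± 88.3 CPM with 27HC, and miR-199a-3p, a stromal miRNA, had 567 ± 216 and 584 ± 184 CPM (SD, n = 7 each). miR-34b-5p, miR-34c-5p and miR-449a-5p had 2, 10 and 18 counts in all 14 libraries.

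Of 13 miRNAs known as suppressors of breast cancer metastasis, 8 were tested and 1 was called (12.5% of those tested, against 12.6% of all tested names), with a median log2 fold change of −0.16. The call was miR-146a-5p, a brake on NF-κB signalling, which fell with 27HC, at 9952 ± 1203 CPM against 17547 ± 1566 CPM with DMSO (SD, n = 7 each; log2 fold change −0.82, SE 0.093, edgeR adjusted p 5.38e-06). It was the 1 member of this list with a higher mean over the 14 libraries than miR-340-5p.

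Of 21 miRNAs that, like miR-340, come from introns of protein-coding genes, 17 were tested, and 0 were called higher and 3 lower (17.6%, against 8.79% of all tested names called lower and 12.6% called in either direction), with a median log2 fold change of −0.14. The 3 were miR-149-5p from Gpc1 at −0.92 (SE 0.16, edgeR adjusted p 0.000512), miR-103-3p from the Pank genes at −0.61 (SE 0.14, edgeR adjusted p 0.00906) and miR-301a-3p from Ska2 at −1.24 (SE 0.33, edgeR adjusted p 0.0193). Of this list only miR-25-3p and miR-93-5p, both from Mcm7, were more abundant than miR-340-5p, at 37926 ± 2901 and 30314 ± 3281 CPM (SD, n = 14). Neither was called.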

How the data were processed

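Total RNA of the vesicles went into small RNA libraries by a QIAseq kit, per the labels' protocols. The authors deposited raw counts per mature miRNA name and library. The submitters' processing notes list GRCm39 (mm39), R 4.1.2, edgeR and limma, with no role given; the aligner, the counting rule for shared reads and the use of molecular identifiers are not given in the sources used here. Coordinates and sequences come from GENCODE M21 and RefSeq on GRCm38, not from the counts. All 14 rows and 1695 columns matched a label; 0 were unmatched. The 42 within-group library pairs differed beyond sampling noise (lowest chi-square per degree of freedom 4.95).

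The comparison used edgeR 4.0.16 (quasi-likelihood, TMM, filterByExpr with a minimum count of 10 and total of 15, treatment as the only term) in R 4.3.3, with Benjamini-Hochberg adjustment over 239 names holding 99.4% of counts. Run on simulated data, it called 27 of 27 tested names changed 4-fold and 0 unchanged ones. Only 4-fold changes were simulated, so this check does not show how often smaller changes would be called. It was a check of the procedure and does not measure detection at the spread of these libraries. The log2 CPM used outside the fits had a prior count of 2. Alternatives were other scalings, filters, DESeq2 1.42.0, limma-voom (limma 3.58.1), a replicate block, a term for the replicate set, subsets and left-out libraries. miR-340-3p failed the filter, so its fit had none. RNAfold gave the hairpin fold.

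The members and lists were chosen with earlier results of these data known. Named were the 2 arms, and the 3 names above and below miR-340-5p in mean CPM. Named too were the 3 most alike names, called list members and names sharing a seed. The shifted seed of miR-142a-5p, other list members given and the hairpins named were added after values were seen. So were the other names given for base composition or for shared reads.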

Additional observations from a re-analysis of the deposited data

Results flagged for a closer look

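Of 10 groups of 7 libraries examined (level and share of miR-340-5p, counts of miR-340-3p, arm ratio and library total in each treatment), 1 had a value set well apart from its group, against 0.5 by chance. It was the total of DMSO replicate 3, 871189 counts, with 400585 counts in the DMSO library next to it in depth. It also gave the highest CPM of miR-340-5p, 15488, and 18 of the 54 counts of miR-340-3p. Without it the log2 fold change of miR-340-5p was −0.027 (edgeR adjusted p 0.928) and that of miR-340-3p was −0.36 (edgeR adjusted p 0.875).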

How the results depend on the processing

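The number of calls over all tested names stayed between 21 and 34 with 1 library left out and was 12 of 198 tested names in replicates 5 to 7 alone, where fewer libraries and names were tested. The log2 fold change of miR-340-5p was never called: it ran from −0.25 to −0.027 with 1 library left out, and from −0.31 (no filter) to 0.11 (replicates 5 to 7 alone, the 1 reversal) in the other 11 alternatives, with adjusted p-values from 0.0883 to 0.928. That of miR-340-3p ran from −1.24 to −0.36 with 1 library left out and was 0.63 in replicates 5 to 7 alone, its 1 reversal among 9 other alternatives. The arm ratio's difference ran from 0.0071 to 0.88 with 1 library left out, was 0.11 with 2 counts added to each arm, and reversed to −0.84 in replicates 5 to 7; the cause of these reversals was not tested. Without miR-16-5p in the total, the share of miR-340-5p in DMSO libraries was 1.87%, since that name held 39.8% of the counts on average. With the mean of each treatment taken off log2 CPM, same-numbered libraries correlated at 0.069 (replicate 2) to 0.60. All of these values were positive, and 3 of 7 libraries correlated best with their own number. The values still hold the difference between the replicate sets, so they cannot decide whether the numbers mark pairs. The labels do not state pairs, and the main fit took none. A fit with the replicate block gave 37 calls, −0.14 for miR-340-5p and −0.71 for miR-340-3p, and changed no call on either arm. Depth limits the 3p arm: 9 of 14 libraries held at most 3 counts.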
